A study of Homo sapiens with 12 samples.

Results

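The zinc finger transcription factor EGR1, its relative EGR3, the corepressors NAB1 and NAB2, and 4 genes known from other cells as EGR1 targets (TGFB1, F3, FN1 and GDF15) were followed by RNA sequencing in hepatocellular carcinoma (HCC) cells. The 8 genes were chosen by name, with earlier results of these data known, and 8 of 8 were found among the 22963 gene names of the expression table. The PLC/PRF5 line, a human hepatoma line, carried either an empty lentiviral vector that also encodes a green fluorescent protein and puromycin resistance (vector), or that vector with the EGR1 coding sequence inserted (EGR1 overexpression). The MHCC97H line, a human HCC line of high metastatic potential, was either parental, labelled Mock, or labelled EGR1 knockout (KO) after infection with a CRISPR/Cas9 virus carrying a guide RNA against EGR1. Knockout cells were expanded from single clones, of which more than one was made, and the sources used here do not say which was sequenced, so the group stands for clonal cells and not for a population. No control vector is described for the parental cells, and cells of all 4 groups were grown in serum-containing medium with no further treatment described. Each group had 3 libraries labelled biological replicates, 12 in all, and the values below are given in the order of replicates 1, 2 and 3.

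EGR1 is an immediate early gene: serum, growth factors and stress switch it on within minutes through the serum response factor SRF and its ELK partners, and in liver it is induced by injury and regeneration. The EGR1 protein binds GC-rich sites in promoters and activates genes of growth, coagulation and matrix. NAB1 and NAB2 bind an inhibitory domain of EGR proteins and bring in the CHD and HDAC subunits of the NuRD corepressor. NAB2 is known as an EGR target in other cells, so that the factor and its corepressor form a negative feedback loop.

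Expression was deposited as FPKM, fragment counts divided by transcript length and by the size of the library. The scale is meant for comparing genes, but levels may also depend on GC content. Summed over all names a library held between 376335 and 437652 FPKM, the 10 most abundant genes took 9.34% to 15.9% of it, and between 5407 and 6624 names were listed at 0. The number of reads behind an FPKM was unknown, so that no counting error could be given. The cells were checked against liver and epithelial markers. KRT8 and KRT18, keratins of liver and other simple epithelia, had mean levels of 517 FPKM or more in every group. Of 8 liver markers, 7 had a mean of at least 1 FPKM in both PLC/PRF5 groups. In parental MHCC97H only 4 did, with albumin (ALB) at 0.885 ± 0.305 FPKM (SD, n = 3). In the libraries labelled knockout 5 did, with ALB at 15.2 ± 1.22 FPKM (SD, n = 3). Of the 6 liver markers other than the keratins, 4 had a higher mean there than in parental cells and 2 a lower one, among them APOB at 0.150 ± 0.0216 against 1.27 ± 0.109 FPKM (SD, n = 3). TTR, counted as higher, was at 0.653 ± 0.685 against 0.293 ± 0.0767 FPKM (SD, n = 3). SERPINA1, counted as lower, was at 0.151 ± 0.1145 against 0.212 ± 0.0691 FPKM (SD, n = 3). For TTR and SERPINA1 the levels were near 0 and the difference lay within the spread. Whether these differences bear on the members was not tested. The summed level of 4 leukocyte markers lay between 26.9 and 58 FPKM, nearly all of it CD68, with PTPRC at 0 in PLC/PRF5 and CD3E at 0 in MHCC97H. The sums of 4 endothelial and of 4 fibroblast markers stayed at or under 8.51 and 1.254 FPKM.

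The EGR site GCGNGGGCG was looked for on both strands of the RefSeq promoters on GRCh38.p14, from 250 bases before to 50 bases after the start. It was present in 9.43% of 35116 promoters. Of the 8 genes, 7 had a promoter entry, and 6 of those 7 held at least 1 match at a listed start. The promoter of GDF15 held 0, as did the NAB1 start window at chr2:190658908-190659207. The windows with a match had GC contents from 69.3% to 82%, and those of GDF15 and of this NAB1 start 59.3% and 40.7%. The share of 9.43% is of promoters and not of genes, and it was not matched for GC content. The stretches below are shown because they carry the letters that EGR proteins recognise; each is written 5′ to 3′ on the strand of its gene, capitals mark the match, and positions are counted from 0 at the RefSeq start.

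The NAB2 promoter had 1 match, at -62 to -54 (chr12:57089042-57089070, plus strand).
NAB2: tgtgcgtcctGCGGGGGCGgaggcgcgga
The NAB1 promoter, at the first of the starts listed for it, had 3 matches, a pair that share letters at -42 to -28 (chr2:190648846-190648874, plus strand) and another within the transcript at 13 to 21 (chr2:190648898-190648926, plus strand).
NAB1, pair: cagcggcCGCCCCCGCCCCCGCccggcgg
NAB1, within the transcript: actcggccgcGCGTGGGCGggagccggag
The TGFB1 promoter had 2 matches, at -136 to -128 (chr19:41354040-41354068, minus strand) and at -80 to -72 (chr19:41353984-41354012, minus strand).
TGFB1, far: cctcggagccCGCCCACGCgagatgagga
TGFB1, near: ccctgggggcCGCCCCCGCtcccgccccg
The F3 promoter had 1 match at -82 to -74 (chr1:94541823-94541851, minus strand), and that of FN1 had 1 across the start at -1 to 7 (chr2:215436051-215436079, minus strand).
F3: gggaggagcgGCGGGGGCGggcgccgggg
FN1: ggcgctcggaCGCCCGCGCcggctgtgct
The EGR1 promoter had 1 match at -198 to -190 (chr5:138465271-138465299, plus strand), and also 2 CArG boxes, the SRF site, at -105 to -96 (chr5:138465364-138465393, plus strand) and at -83 to -74 (chr5:138465386-138465415, plus strand).
EGR1, EGR match: tgggatgcggGCGCGGGCGcgggccctag
EGR1, far CArG box: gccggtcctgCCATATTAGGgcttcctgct
EGR1, near CArG box: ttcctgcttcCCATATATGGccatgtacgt

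CArG boxes were in 1.29% of all promoters. In NAB1, NAB2, TGFB1 and F3 the EGR match shared bases with a GC box, GGGCGG, which was in 45% of all promoters. A match describes the letters of the window and does not show binding.

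EGR1, the gene that both designs target, lies on the plus strand of chromosome 5 (chr5:138465490-138469315, GRCh38). In the vector libraries it had 1.97, 1.43 and 2.03 FPKM, and with EGR1 overexpression 56.3, 50.2 and 52.2 FPKM. The lowest EGR1-overexpressing library thus stood far above the highest vector library. Means were 1.81 ± 0.328 and 52.9 ± 3.10 FPKM (SD, n = 3), a log2 fold change of 4.27 (standard error, SE, 0.11, limma adjusted p = 1.58e-07). The inserted coding sequence and the cell's own transcript were counted together. A gene is named as called where the adjusted p was under 0.05. All fold changes are on the log2(FPKM + 1) scale, which understates those of low genes, and the p-values are 2-sided and adjusted over all genes tested. With 3 libraries against 3, the smallest exact permutation p is 0.1, which every gene below whose groups did not overlap reached. In bulk RNA, fewer cells with a transcript and less of it per cell cannot be told apart.

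In MHCC97H cells EGR1 mRNA went against the label. Parental libraries had 20.2, 23.1 and 21.2 FPKM, and those labelled knockout had 35.2, 50.3 and 32.9 FPKM. Every library labelled knockout was above every parental one, and replicate 2 stood highest. Means were 21.5 ± 1.48 and 39.5 ± 9.43 FPKM (SD, n = 3), or a log2 fold change of 0.83 (SE 0.15, limma adjusted p = 0.00126), and 0.64 without replicate 2 of the knockout (limma adjusted p = 7.99e-04). Changes in MHCC97H followed the GC content of transcripts, and when a trend on GC content and transcript length was removed from each library, here called the GC and length correction, EGR1 was at 0.42 and no longer called (limma adjusted p = 0.0608). With the replicate number added to that fit as a block, EGR1 was called again at 0.42 (limma adjusted p = 0.0139). FPKM counts a transcript whether or not an edit broke its reading frame, so mRNA does not check a knockout of the protein. The study's methods describe checks of the clones by western blot and by sequencing of DNA, neither of which is analysed here. The group is called the libraries labelled knockout throughout. Directions below therefore go by the label and not by the level of EGR1 protein.

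**Figure D1:**
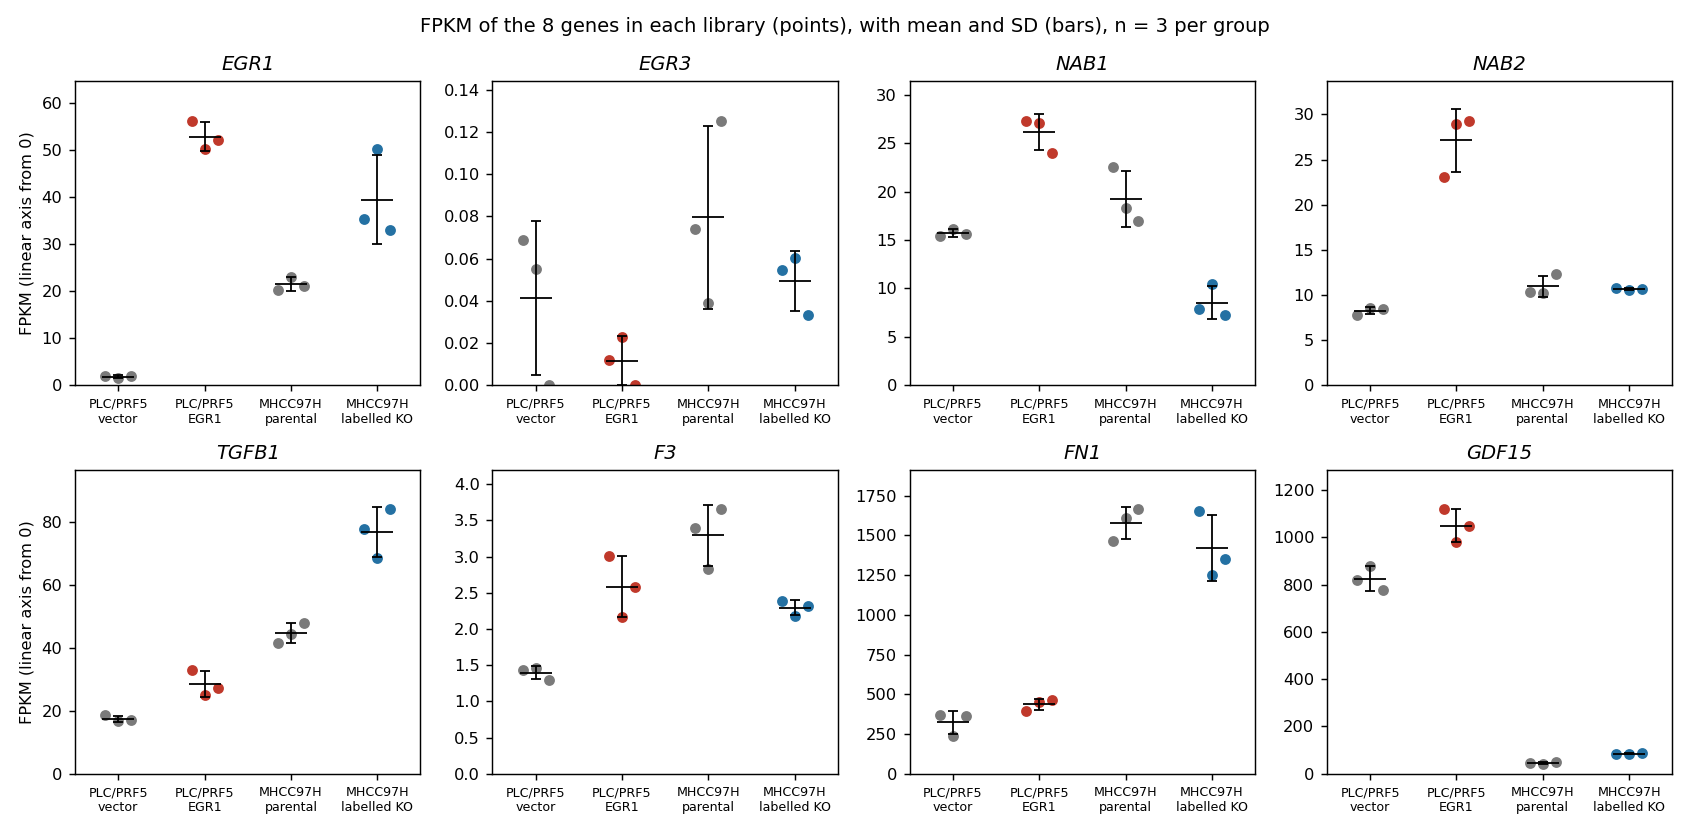
FPKM of the 8 genes (y axes, linear from 0, each with its own scale) in the 4 groups (x axes); points are the 3 libraries of a group, horizontal bars the mean and vertical bars the SD. EGR1 is lowest in vector PLC/PRF5 and is higher in the libraries labelled knockout than in parental MHCC97H, and NAB1 is the gene whose libraries labelled knockout lie below all others.

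Both corepressors rose with EGR1 overexpression. NAB2 lies on the plus strand of chromosome 12 (chr12:57088894-57095476). Its level was 7.80, 8.53 and 8.41 FPKM in vector libraries and 23.1, 28.95 and 29.3 FPKM with EGR1 overexpression. These groups did not overlap. The log2 fold change was 1.60 (SE 0.11, limma adjusted p = 5.20e-05). NAB1 lies on the plus strand of chromosome 2 (chr2:190646746-190692766). It had 15.4, 16.2 and 15.6 FPKM in vector libraries against 27.3, 27.1 and 24.0 FPKM, again without overlap, a log2 fold change of 0.70 (SE 0.09, limma adjusted p = 0.00103). Left-out libraries moved NAB2 between 1.54 and 1.70 and NAB1 between 0.66 and 0.76, with no call lost.

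In MHCC97H cells NAB1 was lower in the libraries labelled knockout, and NAB2 was not called in the values as deposited. With the GC and length correction both were lower there, NAB1 at -0.60 (limma adjusted p = 8.96e-04) and NAB2 at -0.68 (limma adjusted p = 1.88e-04). NAB1 had 22.5, 18.3 and 16.9 FPKM in parental libraries and 7.84, 10.4 and 7.21 FPKM in those labelled knockout, and every library labelled knockout was below every parental one. Its log2 fold change was -1.10 (SE 0.15, limma adjusted p = 2.86e-04). NAB2 stood at 10.3, 10.2 and 12.3 FPKM in parental libraries and at 10.7, 10.5 and 10.6 FPKM in those labelled knockout. The knockout values lay within the parental range, the log2 fold change was -0.03 (95% interval -0.26 to 0.19, limma adjusted p = 0.771), and it turned to 0.044 without parental replicate 3. NAB2 overlaps STAT6 on the other strand by 69 bases. STAT6 had log2 fold changes of -0.09 (limma adjusted p = 0.69) with overexpression and 0.44 (limma adjusted p = 0.0029) in the libraries labelled knockout. The sources used here do not say whether strand was used in counting.

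Because FPKM is per length, the corepressor mRNA was set against EGR1 mRNA within a library. The inserted EGR1 is the coding sequence alone, so its FPKM per full transcript length may be too low. Ratios with overexpression may then be too high, and the length used is not given. The ratio of NAB1 plus NAB2 to EGR1 was 11.8, 17.3 and 11.9 in vector libraries and 0.896, 1.12 and 1.02 with EGR1 overexpression. Corepressor mRNA thus stood well above EGR1 mRNA in vector cells and about level with it under overexpression, with mean ratios of 13.6 ± 3.14 and 1.01 ± 0.110 (SD, n = 3). Parental MHCC97H libraries had ratios of 1.63, 1.24 and 1.38, and those labelled knockout had 0.526, 0.417 and 0.541. Neither pair of groups overlapped. NAB1 had a higher FPKM than NAB2 in vector and parental cells, with a NAB2 to NAB1 ratio of 0.525 ± 0.0161 and 0.581 ± 0.135 (SD, n = 3). The ratio was 1.05 ± 0.189 with EGR1 overexpression and 1.28 ± 0.241 in the libraries labelled knockout, with both genes higher in the first and NAB1 lower in the second. The latter shift was not seen in the fold changes after the GC and length correction, where NAB2 at -0.68 and NAB1 at -0.60 stood close to each other, while with overexpression they stood at 1.69 and 0.45.

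**Figure D2:**
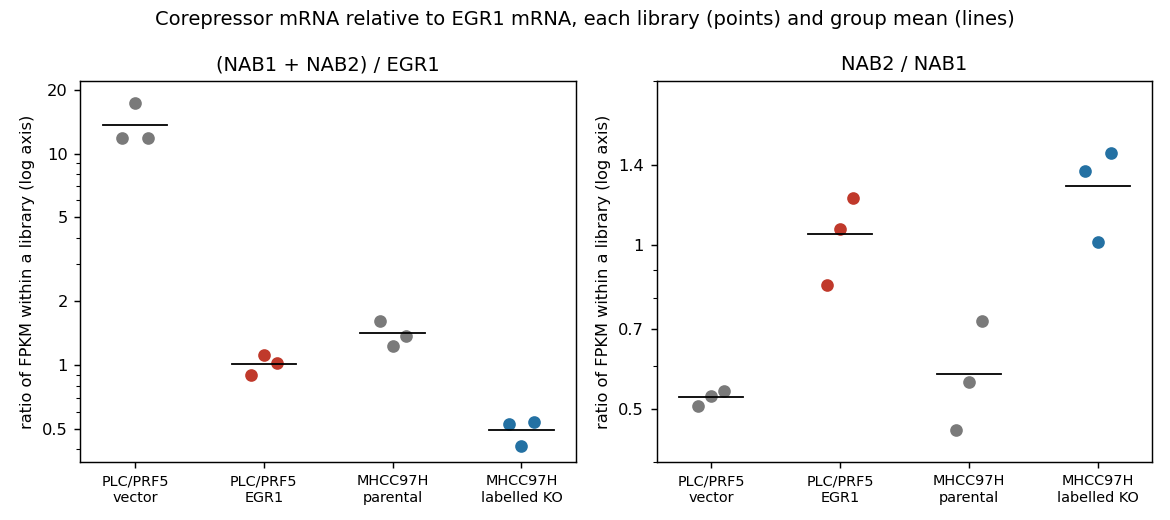
Ratios of FPKM as deposited within each library (log axes) for NAB1 plus NAB2 over EGR1 (left) and NAB2 over NAB1 (right) in the 4 groups; points are libraries and lines are group means. The left ratio is highest in vector PLC/PRF5, with a mean of 13.6, and lowest in the libraries labelled knockout, at 0.495. With overexpression it may be too high, since the inserted EGR1 is the coding sequence alone. The right ratio is lower in vector and parental libraries than in the groups compared with them.

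The secreted factors TGFB1 and GDF15 were higher in both comparisons in the values as deposited, and in the libraries labelled knockout neither call held with the GC and length correction. TGFB1, the transforming growth factor that drives matrix production and restrains epithelial growth, lies on the minus strand of chromosome 19 (chr19:41301587-41353911). It had 18.5, 16.9 and 17.0 FPKM in vector libraries and 33.0, 25.1 and 27.2 FPKM with EGR1 overexpression, without overlap. The log2 fold change was 0.67 (SE 0.11, limma adjusted p = 0.00349). In MHCC97H it had 41.5, 44.4 and 48.0 FPKM in parental libraries and 77.9, 68.5 and 84.0 FPKM in those labelled knockout. All knockout values were above the parental ones, a log2 fold change of 0.77 (SE 0.10, limma adjusted p = 2.52e-04), which the GC and length correction took to 0.11 (limma adjusted p = 0.144). The TGFB1 locus overlaps CCDC97, HNRNPUL1, TMEM91 and AC011462.1 on the other strand. CCDC97 and HNRNPUL1 changed by 0.10 and 0.01 (limma adjusted p = 0.517 and 0.938) with overexpression and by 0.87 and 0.61 (limma adjusted p = 1.19e-04 and 9.19e-04) in the libraries labelled knockout. TMEM91 was below the expression filter in PLC/PRF5 and changed by 0.48 (limma adjusted p = 0.0169) in the libraries labelled knockout. AC011462.1 was below the filter in both lines. Reads of the overlapping parts cannot be told apart without strand.

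GDF15, a stress-induced cytokine of the TGF-beta family that acts on appetite through a brainstem receptor, lies on the plus strand of chromosome 19 (chr19:18374731-18389176). It was the most abundant of the 8 genes in PLC/PRF5, with 819, 881 and 777 FPKM in vector libraries and 1119, 979 and 1050.2 FPKM with EGR1 overexpression. The groups did not overlap, but the rise was small, with a log2 fold change of 0.35 (SE 0.11, limma adjusted p = 0.0466). The call was lost without any single vector library or without replicate 2 or 3 of EGR1 overexpression, with limma adjusted p-values between 0.0565 and 0.174. It was also lost without the expression filter (limma adjusted p = 0.117) and with the replicate number as a block (limma adjusted p = 0.0968). In MHCC97H the gene had 43.7, 41.3 and 48.4 FPKM in parental libraries and 84.7, 82.9 and 86.3 FPKM in those labelled knockout. These groups were well apart, with a log2 fold change of 0.92 (SE 0.09, limma adjusted p = 5.37e-05), and the GC and length correction took it to 0.18 (limma adjusted p = 0.0588). With the replicate number as a block in addition, GDF15 was called at 0.18 (limma adjusted p = 0.0387).

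F3, tissue factor, the membrane protein that starts coagulation, was a low transcript that rose with EGR1 overexpression and, in the values as deposited, was lower in the libraries labelled knockout. It lies on the minus strand of chromosome 1 (chr1:94529225-94541800). Vector libraries had 1.43, 1.47 and 1.29 FPKM and EGR1-overexpressing ones 3.00, 2.17 and 2.58 FPKM, without overlap. The log2 fold change was 0.58 (SE 0.11, limma adjusted p = 0.0071), or 0.83 with a pseudocount of 0.1. Parental libraries had 3.39, 2.83 and 3.65 FPKM and those labelled knockout 2.38, 2.18 and 2.32 FPKM, again apart. That log2 fold change was -0.38 (SE 0.11, limma adjusted p = 0.0159), with the call lost without parental replicate 1 or 3 (limma adjusted p = 0.0511 and 0.0572), under quantile normalization (0.076) and with the GC and length correction (-0.21, limma adjusted p = 0.131).

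FN1, fibronectin, a matrix glycoprotein that liver cells secrete in quantity, lies on the minus strand of chromosome 2 (chr2:215360440-215436172) and passed the threshold in neither comparison. Vector libraries had 369.8, 238.1 and 361 FPKM and EGR1-overexpressing ones 394, 453 and 462 FPKM. Every EGR1 library was above every vector library, yet vector replicate 2 stood low, and the log2 fold change of 0.46 had a 95% interval of 0.07 to 0.84 (limma adjusted p = 0.0711). It was 0.25 without vector replicate 2 (limma adjusted p = 0.134) and 0.19 with the GC and length correction (limma adjusted p = 0.395), while with all 12 libraries in one fit the change of 0.46 passed (limma adjusted p = 0.0486). In MHCC97H it had 1464, 1607 and 1663 FPKM in parental libraries and 1655, 1251 and 1354 FPKM in those labelled knockout. These groups overlapped, with a log2 fold change of -0.16 (95% interval -0.44 to 0.12, limma adjusted p = 0.285) that turned to 0.33 with the GC and length correction (limma adjusted p = 0.0565). With the replicate number as a block in addition, FN1 was called at 0.33 (limma adjusted p = 0.0434).

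EGR3, an EGR family factor of lymphoid and muscle tissue (chr8:22687659-22693302, minus strand), was close to absent. It had 0.0687, 0.0551 and 0 FPKM in vector libraries and 0.0120, 0.0229 and 0 FPKM with EGR1 overexpression. Parental libraries had 0.0742, 0.0390 and 0.125 FPKM and those labelled knockout 0.0545, 0.0601 and 0.0331 FPKM. The groups overlapped in both lines, and EGR3 was left out of the tests, which took genes with a mean of at least 1 FPKM. Without that filter its log2 fold changes were -0.04 and -0.04 (limma adjusted p = 0.396 and 0.391). The remaining family members were low too: EGR2 stayed at or under 0.631 FPKM, and EGR4 at or under 0.105 FPKM in PLC/PRF5 and at 0 in the 6 MHCC97H libraries. EGR1 was thus the only EGR gene of the 4 with a mean of at least 1 FPKM in any group.

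With EGR1 overexpression, 6 of the 7 tested members were called, 6 higher and 0 lower. EGR1 is among them, and its rise was set in advance by the inserted sequence, so it adds nothing to these counts. Of all 11671 genes tested, 29.6% were called, 19.2% higher and 10.4% lower. The groups did not overlap for 7 of the 7 members, 7 of them higher, where 47.7% of all genes did not overlap and 30.4% did so with the higher values under overexpression. The median log2 fold change of the 7 was 0.67, beside 0.09 over all genes. The non-overlap count and this median also include EGR1. Since the members were chosen with earlier results of these data known, their counts beside all genes are a description. Of the genes called, 64.8% were higher, a share that was 46.0% under quantile normalization and 48.6% with GC content and length corrected, and under both the 6 called members were higher. In MHCC97H cells labelled knockout, 5 of 7 members were called, 3 higher and 2 lower. Of all 11577 genes tested there, 66.3% were called, 34.8% higher and 31.5% lower, and 71.8% did not overlap, as did 5 of the 7 members. The members' shares were near those of all genes and are no result about them as a group. The median log2 fold change was -0.03, beside 0.02 over all genes. The share of calls that were higher went from 52.5% to 41.5% when libraries were scaled to one total, which moved the median of all genes to -0.11.

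**Figure D3:**
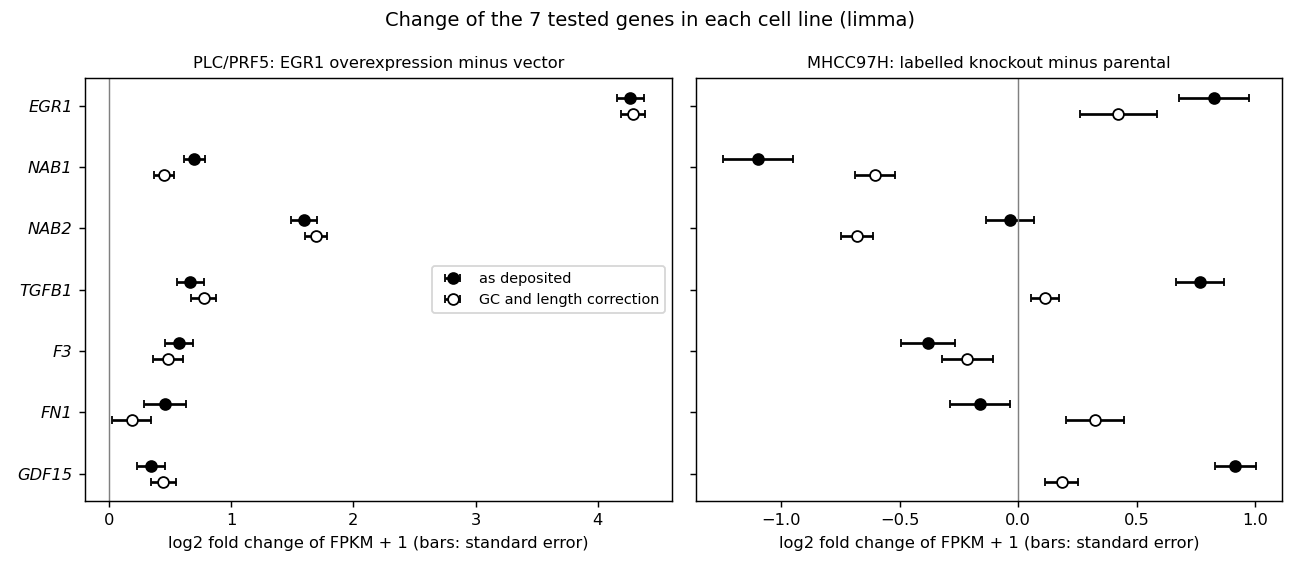
Log2 fold change of FPKM + 1 (x axes) with its standard error for the 7 tested genes, as deposited (filled) and with GC content and length corrected (open), with EGR1 overexpression in PLC/PRF5 (left) and in the libraries labelled knockout of MHCC97H (right). All 7 filled points lie above 0 on the left; on the right those of NAB1, NAB2, F3 and FN1 lie below 0, and the correction moves NAB2 from -0.03 to -0.68 and TGFB1 from 0.77 to 0.11.

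Whether a gene moved differently in the 2 designs was tested as the difference of the changes over all 12 libraries, in which 6 of 7 members and 63.8% of all genes were called. NAB1 differed by 1.80 (SE 0.18, limma adjusted p = 7.77e-06) and NAB2 by 1.63 (SE 0.14, limma adjusted p = 3.44e-06), both higher with overexpression than in the libraries labelled knockout. F3 differed by 0.95 (limma adjusted p = 1.54e-04) and EGR1 itself by 3.44 (limma adjusted p = 1.68e-07). For FN1 the difference was 0.62 (limma adjusted p = 0.0307), and it lost its call when any 1 of 7 libraries was left out, namely replicate 2 of the vector or replicate 2 or 3 of any other group, with limma adjusted p-values between 0.0593 and 0.0687. GDF15 went the other way, with a difference of -0.57 (limma adjusted p = 0.00132), and was short of the threshold under quantile normalization (-0.15, limma adjusted p = 0.399). For TGFB1 the difference was -0.10 with a 95% interval of -0.43 to 0.23 (limma adjusted p = 0.577), and it turned to 0.022 when libraries were scaled to one total and to 0.10 under quantile normalization. With the GC and length correction the difference was 2.33 for NAB2 and 1.08 for NAB1, TGFB1 was called at 0.61 (limma adjusted p = 0.00135), and FN1 and GDF15 turned to -0.12 and 0.21, neither called.

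The relation to GC content moved with several member results. Across genes, which are not independent replicates, Spearman's rho between GC content and log2 fold change was 0.753 in the libraries labelled knockout and -0.437 with EGR1 overexpression. TGFB1, GDF15 and NAB2 have GC contents of 63.5%, 62.9% and 62.6%, EGR1 of 55.4%, and F3, FN1 and NAB1 of 43.7%, 42.2% and 39.9%, where the median gene has 48.3%. With the GC and length correction 6 of 7 members stayed called with overexpression, the inserted EGR1 among them, where 33.8% of 10829 genes were called. NAB2 was then at 1.69 (limma adjusted p = 1.05e-05), TGFB1 at 0.77 (limma adjusted p = 8.66e-04), NAB1 at 0.45 (limma adjusted p = 0.00372), F3 at 0.48 (limma adjusted p = 0.0167) and GDF15 at 0.45 (limma adjusted p = 0.0117).

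With the knockout label the same correction left 2 of 7 members called, the corepressors NAB1 and NAB2, where 47.5% of 10806 genes were called. NAB2 was the GC-rich member whose uncorrected change had been -0.03, beside 0.77 and 0.92 for TGFB1 and GDF15. EGR1, TGFB1, GDF15 and F3 lost their calls with the same sign, and FN1 changed sign. With this correction and the replicate number as a block, 5 of 7 members and 47.7% of all genes were called. EGR1, GDF15 and FN1 then joined the corepressors. Such a correction takes out any change that follows GC content, whatever its source, and the part of GC content in the member results was not tested beyond it.

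**Figure D4:**
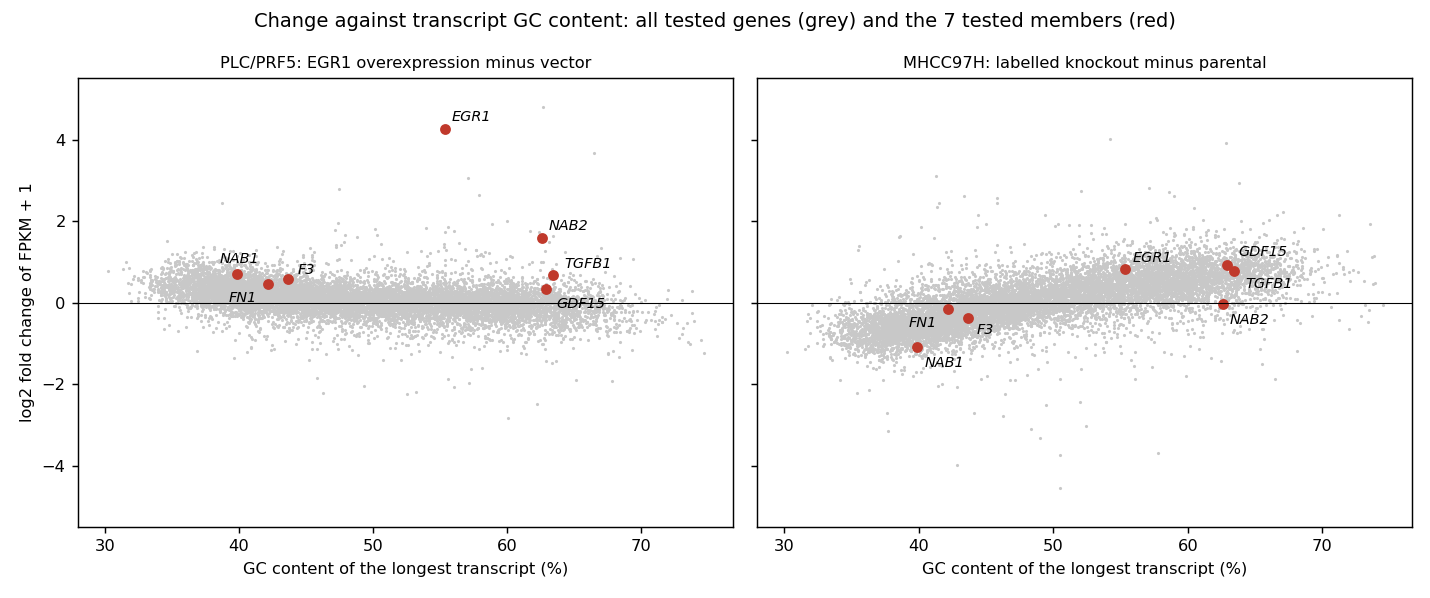
Log2 fold change of FPKM + 1 (y axes) against the GC content of the longest annotated transcript in percent (x axes) for all tested genes (grey) and the 7 tested members (red), with EGR1 overexpression (left) and in the libraries labelled knockout (right). The grey points rise with GC content on the right, where the GC-rich TGFB1 and GDF15 lie at 0.77 and 0.92 and NAB2 at -0.03; on the left EGR1 lies at 4.27 and NAB2 at 1.60.

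The lines themselves differed in the members before any change of EGR1. The comparison of parental MHCC97H with vector PLC/PRF5 shares its libraries with those above. EGR1 was higher in parental MHCC97H by 3.01 on the log2 scale (limma adjusted p = 4.61e-08), FN1 by 2.31 (limma adjusted p = 1.72e-06), TGFB1 by 1.30 (limma adjusted p = 1.31e-06), F3 by 0.84 (limma adjusted p = 7.48e-05) and NAB2 by 0.37 (limma adjusted p = 0.00909). GDF15 was lower by far, at -4.19 (limma adjusted p = 1.32e-09). NAB1 was at 0.27 (95% interval 0.01 to 0.52, limma adjusted p = 0.051), a value that passed when libraries were scaled to one total (0.37, limma adjusted p = 0.013) and turned to -0.11 with GC content and length corrected. In all, 6 of 7 members were called, 5 higher and 1 lower, and 7 of 7 did not overlap. Of all 12046 genes tested 79.8% were called, 38.8% higher and 40.9% lower, and 81% did not overlap. In the share called the members again stood near the background. Their split by direction was less even than that of all genes, which was not tested. Here line and vector cannot be told apart, since none is described for the parental cells.

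Over the 4 groups the order of levels as deposited differed from gene to gene. EGR1 rose from vector to parental to the libraries labelled knockout and to EGR1 overexpression, and the last pair overlapped. TGFB1 rose from vector to EGR1 overexpression, parental and the libraries labelled knockout, with no neighbours overlapping. NAB1 was lowest in the libraries labelled knockout at 8.49 ± 1.70 FPKM, followed by vector at 15.7 ± 0.397, parental at 19.3 ± 2.90 and EGR1 overexpression at 26.1 ± 1.86 FPKM (SD, n = 3), each apart from the next. NAB2 was highest with EGR1 overexpression at 27.1 ± 3.48 FPKM, with parental at 10.9 ± 1.16 and the libraries labelled knockout at 10.6 ± 0.0824 not distinct, and vector lowest at 8.25 ± 0.395 FPKM (SD, n = 3). For F3 the libraries labelled knockout, EGR1 overexpression and parental overlapped in turn above vector. FN1 overlapped between the MHCC97H groups, which stood above both PLC/PRF5 groups, while GDF15 had the PLC/PRF5 groups on top and no overlap.

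Further genes of the EGR1 circuit were counted from lists, in which the members themselves are included. Medians below are log2 fold changes, to be read beside those over all genes, 0.09 with overexpression and 0.02 in the libraries labelled knockout. The counts likewise stand beside 19.2% of all genes called higher and 10.4% lower with overexpression, and 34.8% higher and 31.5% lower in the libraries labelled knockout. Of 10 NAB and NuRD corepressor genes tested, 3 were higher and 1 lower with EGR1 overexpression, with a median log2 fold change of -0.03. Beside NAB1 and NAB2 these were the histone deacetylases HDAC2 at 0.41 (limma adjusted p = 0.0432) and HDAC1 at -0.37 (limma adjusted p = 0.0118). In the libraries labelled knockout 3 were higher and 4 lower, with a median of 0.04, among them MTA2 at 0.60 (limma adjusted p = 6.13e-04) and HDAC2 at -0.73 (limma adjusted p = 0.00217). With the GC and length correction HDAC2 was called in neither comparison, at -0.01 in both (limma adjusted p = 0.953 with overexpression and 0.977 in the libraries labelled knockout), and MTA2 was at 0.20 (limma adjusted p = 0.0249). Of 6 coactivators and modifiers, 1 was higher and 0 lower with overexpression, around a median of 0.34. Of the same 6, 2 were higher and 1 lower in the libraries labelled knockout (median 0.11). Of 6 upstream genes of the SRF and ELK branch, 0 were higher and 1 lower with overexpression (median 0.09), the kinase MAPK3 at -0.40 (limma adjusted p = 0.0131). In MHCC97H cells labelled knockout 3 were higher and 3 lower (median 0.14), with MAPK3 at 1.08 (limma adjusted p = 5.89e-05) and ELK1 at 0.73 (limma adjusted p = 5.91e-04), which the correction took to 0.44 (limma adjusted p = 0.00147) and 0.23 (limma adjusted p = 0.0529).

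Among secreted EGR1 targets, 3 of 7 tested were higher and 1 lower with EGR1 overexpression (median 0.12). TGFB1 and GDF15 were joined by APOA1, the main protein of high-density lipoprotein, which rose from 3.18 ± 1.02 to 113 ± 4.77 FPKM (SD, n = 3), by 4.80 on the log2 scale (limma adjusted p = 1.44e-06), while PDGFB was at -0.48 (limma adjusted p = 0.011). With the knockout label 3 of 5 tested were higher and 0 lower (median 0.60), TGFB1, GDF15 and the growth factor PDGFA at 0.60 (limma adjusted p = 0.00311), which was at 0.25 after the correction (limma adjusted p = 0.0582). Of the coagulation and matrix targets, 3 of 7 were higher and 0 lower with overexpression (median 0.46). They were F3, the hyaluronan receptor CD44 at 0.96 (limma adjusted p = 0.00199) and thrombospondin, THBS1, at 0.92 (limma adjusted p = 4.97e-04). CD44 had 0.831 ± 0.211 FPKM in vector libraries and 2.56 ± 0.508 FPKM with overexpression (SD, n = 3). For THBS1 these were 0.966 ± 0.0561 and 2.73 ± 0.21 FPKM (SD, n = 3). Only the overexpression group thus took CD44 and THBS1 past the filter in PLC/PRF5, so their calls there add nothing to this count. In the libraries labelled knockout 4 of 10 were higher and 3 lower (median -0.15). CD44 was again higher at 0.87 (limma adjusted p = 1.13e-04) and the membrane protease MMP14 at 0.96 (limma adjusted p = 1.43e-04), while THBS1 was at -0.69 (limma adjusted p = 3.54e-04) and the urokinase gene PLAU at -0.96 (limma adjusted p = 7.80e-05). All 4 stayed called with the correction, MMP14 at 0.43 (limma adjusted p = 0.0029). THBS1 thus shared the opposite signs of F3.

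Among the targets of growth control and stress, 3 of 10 were higher and 2 lower with overexpression (median 0.14), and 4 of 10 higher and 2 lower in the libraries labelled knockout (median 0.11). The growth arrest gene GADD45A was at 1.01 (limma adjusted p = 0.00226) and 0.51 (limma adjusted p = 0.00342) and the nuclear receptor NR4A1 at 0.52 (limma adjusted p = 0.00224) and 0.36 (limma adjusted p = 0.0187). The prostaglandin synthase PTGES was at -0.52 (limma adjusted p = 0.0109) and 0.33 (limma adjusted p = 0.0387). In the libraries labelled knockout the correction turned PTGES to -0.24, a call in the other direction (limma adjusted p = 0.0309), and ended the calls of GADD45A (0.17, limma adjusted p = 0.13) and of NR4A1, which turned to -0.16 (limma adjusted p = 0.304). With overexpression the pro-apoptotic BCL2L11 was at 0.57 (limma adjusted p = 0.00366).

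The partners of the target proteins were counted in the same way. Of 12 other TGF-beta pathway genes, 2 were higher and 1 lower with EGR1 overexpression (median 0.11), the inhibitor SMAD7 at 0.38 (limma adjusted p = 0.0168), the coreceptor TGFBR3 at 0.36 (limma adjusted p = 0.0309) and the latent TGF-beta binding protein LTBP1 at -1.11 (limma adjusted p = 1.95e-04). With the knockout label 2 of 11 were higher and 5 lower (median -0.28), with SMAD7 at 0.38 (limma adjusted p = 0.0126), the SMAD inhibitor SKIL at -1.32 (limma adjusted p = 0.00136) and TGFBR3 at -0.86 (limma adjusted p = 2.46e-04). With the correction TGFBR3 was at 0.19 with overexpression (limma adjusted p = 0.101), and in the libraries labelled knockout SMAD7 turned to -0.13 (limma adjusted p = 0.3), SKIL was at -0.49 (limma adjusted p = 0.00758) and TGFBR3 at -0.54 (limma adjusted p = 0.00123).

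In the tissue factor pathway 2 of 5 were higher and 2 lower with overexpression (median -0.12). The inhibitor TFPI was at -0.64 (limma adjusted p = 0.00388), factor X, F10, at -0.66 (limma adjusted p = 0.00621) and the receptor F2RL1 at 0.43 (limma adjusted p = 0.00775). In the libraries labelled knockout 0 of 3 were higher and 1 lower (median -0.30), F2RL1 at -0.92 (limma adjusted p = 7.62e-05). Of the fibronectin receptors, 2 of 4 were higher and 1 lower with overexpression (median 0.19), and 0 of 4 higher and 2 lower in the libraries labelled knockout (median -0.30). The integrin subunit ITGA5 was at -0.84 (limma adjusted p = 0.00142) and -0.48 (limma adjusted p = 0.00678), and ITGAV at 0.74 (limma adjusted p = 0.00432) and -0.93 (limma adjusted p = 0.0011). The correction took ITGA5 to -0.85 and -0.80 and ITGAV to 0.37 and -0.26, with the calls kept. Of 3 tested genes around GDF15, 1 was higher and 1 lower with overexpression (median -0.11), the higher one being the stress factor DDIT3 at 0.75 (limma adjusted p = 0.0182), and 2 were higher and 0 lower in the libraries labelled knockout (median 0.44), DDIT3 at 0.44 (limma adjusted p = 0.00411) and ATF4 at 0.52 (limma adjusted p = 6.94e-04). With the correction they were at 0.21 (limma adjusted p = 0.0457) and -0.03 (limma adjusted p = 0.756). The GDF15 receptor GFRAL was below the expression filter in both lines.

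Further called genes of these lists are named here after their values were seen. With overexpression they were TFPI2 and SDC4, both higher. For the knockout label the higher ones were CHD3, MTA1, SRF, ICAM1 and LTBP3, and the lower ones RBBP4, GATAD2B, ELK3, ELK4, CCND1, TGFB2, TGFBR1 and SMAD4. With the GC and length correction TFPI2 and SDC4 stayed called, while of the knockout genes CHD3, ICAM1, GATAD2B, ELK3 and CCND1 stayed called in the same direction. MTA1 and LTBP3 were then called lower, at -0.31 (limma adjusted p = 0.0042) and -0.18 (limma adjusted p = 0.0255), and SRF, RBBP4, ELK4, TGFB2, TGFBR1 and SMAD4 were not called, ELK4 and SMAD4 turning to 0.05 and 0.19.

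With the correction for GC content and length, which was added for these lists after the data were seen, most counts changed. Of all genes, 16.4% were then called higher and 17.4% lower with overexpression, and 24.5% higher and 23% lower in the libraries labelled knockout. With overexpression the corepressors went to 2 higher and 2 lower of 10, the coactivators to 0 of 6, the SRF and ELK branch to 1 higher and 1 lower of 6, the targets of growth control and stress to 3 higher and 3 lower of 10, the TGF-beta pathway to 1 higher and 4 lower of 12, and the fibronectin receptors to 2 higher and 2 lower of 4. The secreted targets, the coagulation and matrix targets, the tissue factor pathway and the genes around GDF15 kept their counts. In the libraries labelled knockout the tissue factor pathway alone kept its counts among these lists. The corepressors went to 2 higher and 4 lower of 10, the coactivators to 2 higher and 0 lower of 6, the SRF and ELK branch to 1 higher and 1 lower of 6, and the secreted targets to 1 higher and 1 lower of 5. The coagulation and matrix targets went to 3 higher and 4 lower of 10, the targets of growth control and stress to 1 higher and 6 lower of 10, the TGF-beta pathway to 0 higher and 3 lower of 11, the fibronectin receptors to 1 higher and 3 lower of 4, and the genes around GDF15 to 1 higher and 1 lower of 3. CD44 at 1.06 (limma adjusted p = 9.39e-05) and THBS1 at -0.47 (limma adjusted p = 3.86e-04) stayed past the threshold. With overexpression APOA1, THBS1, CD44, GADD45A and LTBP1 did so too, at 4.90, 0.77, 0.84, 1.05 and -1.16. THBS1 and CD44 again passed the filter there only through the overexpression group.

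The genes whose level over the 12 libraries was most like that of EGR1 were named by Pearson's r of log2(FPKM + 1) among 12089 other genes, as a description of 4 groups of 3 libraries. They were the small GTPase gene GEM (r = 0.952), CRYBG1 (0.944), the cholesterol exporter ABCA1 (0.937), TAF1C (0.935) and galectin-3, LGALS3 (0.935). GEM had 4.35 ± 0.646 FPKM in vector libraries and between 11.2 and 11.7 FPKM on average in the other 3 groups (n = 3 each). Among the members, F3 stood at rank 182 (r = 0.716), NAB2 at 273 (0.679), TGFB1 at 300 (0.668), FN1 at 1137 (0.506), NAB1 at 6067 (0.0695) and GDF15 at 9304 (-0.295). The order depended on the measure: by Spearman's rho 1 of the 5 remained among the top 5.

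The genes most like NAB2 were the chemokine CX3CL1 (r = 0.957), the assembled locus MSTRG.8454 (0.954), the adaptor DOK7 (0.953), the cytokine IL11 (0.952) and MFGE8 (0.95). They stood high with EGR1 overexpression, which a ranking by likeness to NAB2, itself highest there, brings with it. CX3CL1, DOK7 and IL11 had means under 1 FPKM in every other group. Only the overexpression group thus took them past the filter, a mean of at least 1 FPKM over the 12 libraries. DOK7 went from 0.0891 ± 0.0287 FPKM in vector libraries to 12.9 ± 0.173 FPKM, against 0.0141 and 0.00588 FPKM on average in the MHCC97H groups (n = 3 each). IL11 went from 0.301 ± 0.0810 to 3.74 ± 0.802 FPKM, against 0.269 and 0.205 FPKM. By Spearman's rho 0 of these 5 remained among the top 5.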

How the data were processed

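RNA of PLC/PRF5 and MHCC97H cells was selected with oligo(dT) beads, and libraries treated with duplex-specific nuclease were read on the NovaSeq platform. The authors deposited FPKM for 22963 names in 12 libraries, of which 3031 are assembled loci. The submitters' processing notes name StringTie and hg38, and the aligner and annotation are not given in the sources used here. Groups and replicate numbers came from the labels, and every column was used.

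Values were log2-transformed after adding 1 and fitted with limma 3.58.1 (R 4.3.3, intensity trend, no covariates) for genes whose mean FPKM in the fitted libraries reached 1, 6 for each comparison of groups and 12 for the difference of changes. Tests were 2-sided with Benjamini-Hochberg adjustment and a threshold of 0.05, and single genes were also tested by exact permutation. The fits were tested on simulated data. Count tools were not used. Replicates are labelled biological, but whether cultures were independent is not given, so p-values measure the spread between these libraries. The depth was unknown.

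Of 19932 names other than assembled loci, 19458 (97.6%) matched GENCODE release 29 on GRCh38, which gave positions, GC content and length. The correction removed splines on GC content and log length (5 degrees of freedom each) from each library's deviation from the mean. Promoters came from RefSeq (GRCh38.p14), and plots from matplotlib 3.10.9 under Python 3.11.15.

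The 8 members, the gene lists and the alternatives were chosen with earlier results of these data known. From the lists were named the genes past the threshold in both comparisons, the 2 with the largest change in each, EGR2 and EGR4, and the 5 genes most like EGR1 and NAB2; some of these are not reported here by name. Alternatives were a pseudocount of 0.1, no filter, scaling to one total, quantile normalization, no trend, a single fit of all 12 libraries, the replicate block, the GC and length correction with and without the block, stricter thresholds and leaving out each library.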

Additional observations from a re-analysis of the deposited data

How the results depend on the processing

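Among 627 values from alternative settings, 562 had an unchanged direction and side of the threshold or stayed within 1.5-fold of a count, 25 lost a call, 6 gained one, 13 changed sign and 21 counts moved by more. The 3457 genes called with EGR1 overexpression became 1468 at an adjusted p under 0.01 and 206 with a change of at least 2-fold, 2 of them members. With libraries left out in turn they ranged from 1919 to 4007, with 2246 without replicate 3 of the vector, 2208 without replicate 3 and 1919 without replicate 2 of EGR1 overexpression. A 2-fold minimum left 1029 genes and 1 member in the libraries labelled knockout, 4431 genes between the lines, and 2598 genes and 3 members in the difference of changes. The GC and length correction left 2 members in the libraries labelled knockout, with EGR1 at 0.42 (limma adjusted p = 0.0608), turned FN1 to 0.33 there and NAB1 between the lines to -0.11, and turned the difference of changes to 0.61 for TGFB1, -0.12 for FN1 and 0.21 for GDF15. That difference for TGFB1 was also above 0 with one total (0.022) and quantile normalization (0.10), and NAB2 in the libraries labelled knockout ranged from -0.076 to 0.044 with libraries left out, above 0 without parental replicate 3. Whether the replicate numbers pair the libraries was not settled. Deviations of same-numbered libraries correlated at -0.132, 0.136 and -0.0758 with overexpression, and at 0.0317, 0.0302 and 0.467 in MHCC97H. In MHCC97H those of unlike numbers went from -0.408 to 0.381. Between the lines, same-numbered libraries correlated from -0.393 to -0.00823. With the replicate number as a block, 3253, 7987, 9249 and 7839 genes were called with overexpression, in the libraries labelled knockout, between the lines and in the difference, and GDF15 lost its call with overexpression (limma adjusted p = 0.0968). With the block and the correction together, 5 members and 47.7% of all genes were called in the libraries labelled knockout, the corepressors, EGR1 (limma adjusted p = 0.0139), GDF15 (0.0387) and FN1 (0.33, limma adjusted p = 0.0434). The causes were not tested. The unknown depth limits what can be said of EGR3 and other genes near 0.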
